A study of Mus musculus with 20 samples.

Results

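The descending thoracic aorta was compared with the ascending aorta in mice that drank water. The comparison took the 10 water libraries of the 20 in the series, by their labels: 5 from the ascending and 5 from the descending aorta of C57BL/6J mice, an inbred laboratory strain, each after 1 week of water. The tissue label reads aorta alone, so the region was read from the letter A or D that opens a sample's title. It covered all 15543 genes that passed a filter on low counts, of 54532 in the deposited table. The other 10 libraries, 5 a region, came from C57BL/6J mice given BAPN (beta-aminopropionitrile, an inhibitor of the lysyl oxidases that crosslink elastin and collagen) for 1 week, and serve here only to show whether a regional difference was seen a second time. The labels name no transgene, deletion or other agent in any group, and they give neither age nor sex nor the number of animals behind a library. Whether each library is an animal of its own is not stated, and the p-values therefore rest on the spread among these libraries, which may be technical.

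The walls of these regions has different embryonic origins. Smooth muscle of the ascending aorta comes from the second heart field and the cardiac neural crest, while that of the descending aorta comes from the paraxial mesoderm that also forms the somites. Hox genes encode homeodomain transcription factors that lie in clusters and are switched on along the head-to-tail axis in the order of their place in the cluster, low paralog numbers towards the head and high ones towards the tail, and adult mesenchyme keeps much of that pattern. The ascending aorta also joins the heart at the valve ring and lies inside the pericardial sac, whose mesothelium covers it, while the descending aorta runs along the spine in fat.

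Counts assigned to genes ran from 16355337 to 23292294 in the water libraries. Levels are given as CPM, counts scaled to a library's total by edgeR's TMM library sizes, in the order of libraries 1 to 5 of a region, and a difference is always descending minus ascending on the log2 scale from edgeR's quasi-likelihood fit, with its standard error (SE) and a p-value adjusted by Benjamini-Hochberg over all 15543 genes. A gene was called where that adjusted p was under 0.05. The labelled tissue was checked on smooth muscle genes: Myh11, the smooth muscle myosin heavy chain, stood at 5552, 4816, 4832, 4856 and 4695 CPM in the ascending libraries and 4721, 4510, 5014, 5482 and 5028 CPM in the descending libraries, a difference of 0 (SE 0.06, adjusted p = 0.999). The first principal component held 69.3% of the variance between the 10 libraries and set the regions apart, with scores from -50 to -42.3 in ascending and from 42 to 49.8 in descending libraries. A set of 33 pseudogenes split the libraries of both regions into 2 sets, a higher set with ascending libraries 4 and 5 and descending libraries 1, 2 and 5, and a lower set with the other libraries; the labels give no batch. Descending library 1 alone carried lung-type transcripts: Sftpc, a surfactant protein gene, stood at 49.3, 0, 0, 0.0537 and 0 CPM in the descending libraries and at no more than 0.0525 CPM in any ascending one. Sftpc, and Myl2, Matn1, Cnmd, Ucma, Acan and Hapln1 below, are named after their values were seen.

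The regions differed at 4243 genes, 27.3% of those tested. Of these, 1885 were higher in descending (12.1% of genes tested) and 2358 were lower (15.2%), so small differences ran both ways. Large differences lay mostly towards ascending: 1172 genes were called and differed by at least 2-fold, 237 of them higher in descending (1.52% of genes tested) and 935 lower (6.02%). Among called genes differing by less than 0.5 on the log2 scale, 1334 were higher in descending and 841 in ascending, whereas beyond a difference of 4 there were 22 and 198. The libraries of the 2 regions did not overlap at 2966 of the 4243 called genes, beside 3127 of all 15543 (20.1%). Protein-coding genes made up 4037 of the calls, with 29.2% of those tested called, against 14.7% of long noncoding and 6.48% of pseudogene entries. Fitted within the higher and within the lower pseudogene set, 1852 of the 4243 genes were called in the same direction in both, 1144 in 1 of them, and 0 in the opposite direction. Among genes named below, Hoxb3os (adjusted p = 0.088) and Ccna2 (0.0914) lost their call within the higher set, Snai2 (0.178), Smad3 (0.0845) and Ucp1 (0.0999) within the lower one, and others as marked where they are named. For every gene list below, the shares over all genes tested were 12.1% higher and 15.2% lower. Without descending library 1, which held the lung-type transcripts, 4114 genes were called. All of this is bulk RNA, in which fewer cells of a type and less RNA per cell cannot be told apart.

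Genes of the Hox clusters held the largest differences towards the descending aorta. In paralog groups (numbered positions shared by the clusters) 5 to 10, 13 of 15 tested genes were higher in descending, each by at least 2-fold, and 1 was lower. Groups 1 to 4 were mixed, with 4 of 8 tested genes higher. The 9 genes of groups 11 to 13 had at most 1 count in a region and were not tested. Over all clusters 17 of 23 tested genes were higher, beside 12.1% of all genes, and the median difference was 5.61 beside 0.01 over all genes tested. Within each pseudogene set as well as over all libraries, 8 B genes and 4 C genes were higher.

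**Figure D1:**
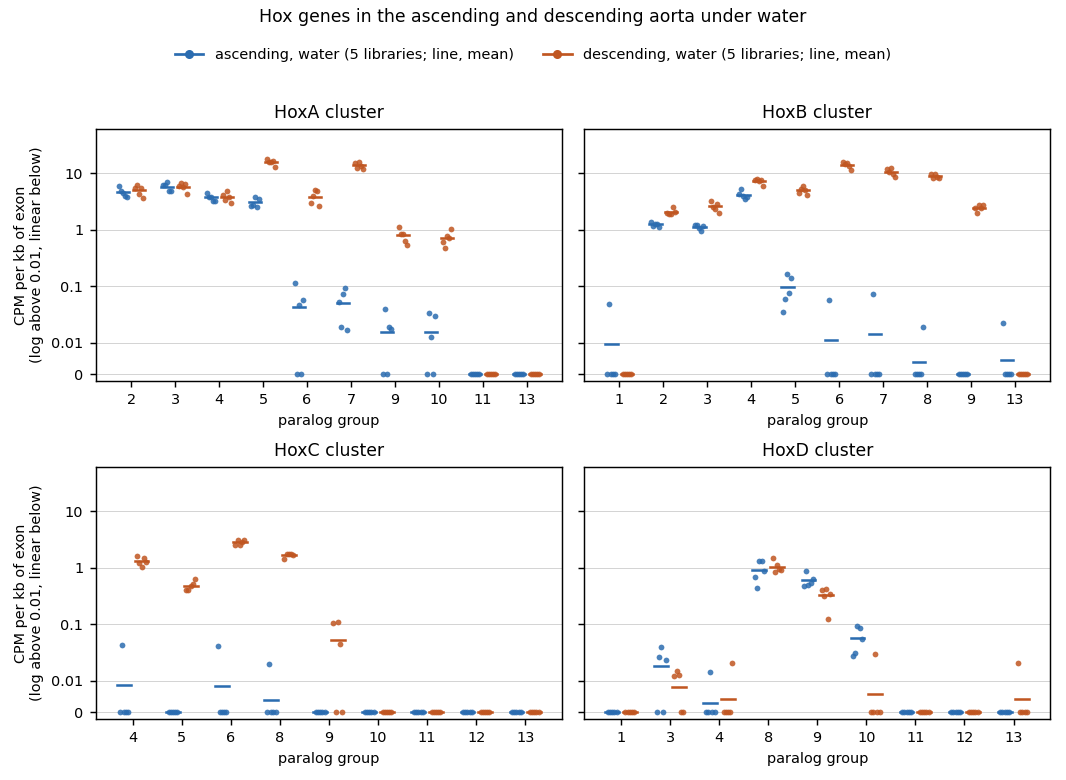
Levels of Hox genes by cluster (panels) and paralog group (horizontal axis), in CPM per kilobase of exon on an axis that is logarithmic above 0.01 and linear below; points are the 5 water libraries of each region and lines their means. Groups 2 to 4 of clusters A and B differ by at most 1.20 on the log2 scale, Hoxa5 lies between, groups 6 to 10 of A and 5 to 9 of B are near 0 in ascending, groups 4 to 8 of C are near 0 in ascending, and cluster D shows no such step.

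Hoxb8, a homeodomain factor of the middle of the B cluster at chr11:96281905-96285315 (mm10), had 0, 0, 0, 0 and 0.0494 CPM in the ascending libraries and 25.6, 21.6, 25.4, 22.8 and 21.2 CPM in the descending ones. That is 1 count in all in ascending against 2094 in descending, a ratio of 2379-fold (95% counting interval 427 to 94015). Hoxb6, of the same cluster, had 0, 0.111, 0, 0 and 0 CPM against 30.6, 29.0, 29.5, 26.8 and 22.2 CPM, a ratio of 1408-fold (95% counting interval 389 to 11635). Every descending library lay far above every ascending one for both genes. Hoxb7 had 0, 0.111, 0, 0 and 0 CPM against 18.3, 16.0, 18.8, 14.8 and 13 CPM, a ratio of 826-fold (95% counting interval 228 to 6827). Hoxb9 had no count in ascending and 6.24, 5.11, 6.93, 6.28 and 7.06 CPM in descending, at least 214-fold higher against 3 counts over the group. Hoxb5 stood at 0.0997, 0.167, 0.456, 0.21 and 0.395 CPM in the ascending libraries and 12.2, 14.7, 16.7, 13.9 and 11.5 CPM in the descending libraries, a difference of 5.61 (SE 0.22, adjusted p = 1.35e-16).

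The B cluster changed character between paralog groups 4 and 5. Hoxb2, Hoxb3 and Hoxb4 were present in both regions and only moderately higher in descending, by 0.73 (SE 0.13, adjusted p = 6.63e-05), 1.20 (SE 0.14, adjusted p = 1.85e-07) and 0.82 (SE 0.10, adjusted p = 5.84e-07). Hoxb4, at chr11:96318267-96321638, stood at 11, 13.2, 10.2, 8.82 and 9.54 CPM in the ascending libraries and 19.1, 20.2, 18.7, 19.5 and 15.5 CPM in the descending libraries. Per kilobase of exon its mean level was 4.12 CPM in ascending and 7.25 CPM in descending, while Hoxb5 had 0.0953 and 4.94 CPM on that scale. All 8 tested B genes were higher in descending, with a median difference of 7.43, or 6.68 with Hoxb9 set at its lower bound.

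The A cluster broke at the same place. Hoxa2, Hoxa3 and Hoxa4 had differences of 0.12, 0 and 0.03 that did not pass the test (adjusted p = 0.635, 0.989 and 0.903). Hoxa3, for instance, stood at 37.2, 36.8, 41.2, 29.5 and 29.4 CPM in the ascending libraries and 35.3, 40, 34.6, 38.0 and 26.0 CPM in the descending libraries, with the regions overlapping. Hoxa5 was the step between: it had 4.93, 5.22, 7.13, 4.73 and 6.43 CPM in ascending and 32.9, 29.4, 29.4, 30.2 and 24.2 CPM in descending, a difference of 2.35 (SE 0.10, adjusted p = 1.41e-15), and so was not silent in the ascending wall. From Hoxa6 on, ascending levels were near 0. Hoxa7, at chr6:52214491-52221854, had 0.149, 0.0555, 0.207, 0.263 and 0.0494 CPM against 44.1, 36.0, 44.9, 38.8 and 33.9 CPM and differed by 8.0 (SE 0.22, adjusted p = 7.14e-20). Hoxa6, Hoxa9 and Hoxa10 differed by 6.2 (SE 0.46, adjusted p = 2.55e-10), 5.69 (SE 0.38, adjusted p = 3.07e-12) and 5.38 (SE 0.55, adjusted p = 9.65e-09), each with all descending libraries above all ascending ones.

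Cluster C, which lacks paralogs below group 4 in mammals, was all but absent from ascending libraries. Hoxc6 had 0.0997, 0, 0, 0 and 0 CPM in ascending and 6.09, 7.51, 6.07, 6.87 and 7.36 CPM in descending libraries, a ratio of 342-fold (95% counting interval 94.3 to 2830). Hoxc8 had 1 count in ascending and 4.09, 4.99, 5.0, 4.94 and 4.72 CPM in descending, a ratio of 481-fold (95% counting interval 85.8 to 19027). Hoxc4 and Hoxc5 were higher by a ratio of 174-fold (95% counting interval 47.7 to 1442) and by at least 50-fold against 3 counts over the group. The descending signal ended near group 9: Hoxc9 had 0 counts in ascending and 12 in descending, too few to test. Cluster D showed none of this. Hoxd8 stood at 1.89, 1.22, 3.56, 3.57 and 2.37 CPM in the ascending libraries and 4.04, 2.28, 3.01, 2.63 and 2.45 CPM in the descending libraries, a difference of 0.19 (SE 0.26, adjusted p = 0.66) with overlapping libraries. Hoxd9 was lower in descending, at -0.87 (SE 0.32, adjusted p = 0.0435). That call was lost within both pseudogene sets (adjusted p = 0.278 and 0.209) and without any one of ascending libraries 2, 4 and 5 and descending libraries 2, 4 and 5 (adjusted p from 0.0576 to 0.131).

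Sequence upstream of the start sites is shown for a gene that was all but silent in ascending (Hoxb8), a gene of the same cluster that was not (Hoxb4), and an A cluster gene near 0 in ascending (Hoxa7). The windows are the 250 bases before the RefSeq start site on GRCm38.p6, run 5′ to 3′ on the gene's strand, and leave out annotated exon, which keeps the 112 bases farthest from the start for Hoxa7. That Hoxa7 stretch lies inside the gene span given above, which reaches farther upstream than the RefSeq start site. Capitals mark TTTATG on either strand, a core that Cdx homeodomain proteins, known regulators of trunk Hox genes, are known to bind.
Hoxb8, chr11:96281655-96281904, plus strand: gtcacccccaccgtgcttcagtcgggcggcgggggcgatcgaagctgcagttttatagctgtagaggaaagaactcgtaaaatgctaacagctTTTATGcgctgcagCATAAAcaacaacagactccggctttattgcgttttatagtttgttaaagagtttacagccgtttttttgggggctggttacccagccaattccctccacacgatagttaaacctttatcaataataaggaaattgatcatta
Hoxb4, chr11:96318017-96318266, plus strand: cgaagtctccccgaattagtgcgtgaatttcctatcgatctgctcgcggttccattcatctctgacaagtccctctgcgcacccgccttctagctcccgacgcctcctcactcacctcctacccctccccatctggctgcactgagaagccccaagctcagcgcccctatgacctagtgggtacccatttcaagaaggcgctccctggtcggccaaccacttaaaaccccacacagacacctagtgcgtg
Hoxa7, chr6:52218712-52218823, minus strand: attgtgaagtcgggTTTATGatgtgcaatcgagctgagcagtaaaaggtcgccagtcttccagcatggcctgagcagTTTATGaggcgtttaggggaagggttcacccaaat

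The Hoxb8 window holds 2 matches and the Hoxb4 window 0. The Hoxa7 stretch holds 2. TTTATG occurred in 3536 of 32851 windows of 250 bases before annotated starts (10.8%), and in 5 of the 24 windows of 22 Hox genes: those of Hoxa7, Hoxb8, Hoxd3, Hoxd4 and Hoxd11. It was 1 of 5 motifs searched on both strands. TGACAG, a core of the Meis cofactors, was in 15.9% of all windows and in 2 Hox windows. TAATTA, the common homeodomain core, was in 4.84% and 2. AGATAA, the core bound by zinc finger factors such as Gata4, was in 9.99% and 0. CCGCCC, an Sp1-type box, was in 32.7% and 10. Of the genes with a TTTATG match, Hoxd3 had 8 counts in all ascending and 3 in all descending libraries, Hoxd4 had 1 and 1, and Hoxd11 had 0 and 0. Hoxa7 and Hoxb8 were thus the only Hox genes called higher in descending that had a match. Hoxb6, Hoxb7, Hoxb9, Hoxc6 and Hoxc8, also all but absent from ascending, were not among the matches. Not every Hox gene had a window. What part the motif had in these levels was not tested.

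Genes around the clusters and transcripts within them differed much less or in either direction. Of 15 tested genes that flank the clusters, 2 were higher and 3 lower, close to the shares of all genes, with a median of 0.01. Most single libraries, left out, took 1 of the 2 higher calls away. Skap2, an adaptor gene next to the A cluster, was higher by 0.31 (SE 0.05, adjusted p = 9e-06), and Calcoco1, beside the C cluster, was lower, at -0.30 (SE 0.05, adjusted p = 9.24e-06). Noncoding transcripts of the clusters split. Hoxb5os, which runs beside Hoxb5, was higher, with 4.09, 3.2, 3.65, 4.46 and 3.01 CPM in descending against 0.0498, 0.333, 0, 0.158 and 0 CPM in ascending, a difference of 5.12 (SE 0.40, adjusted p = 8.69e-11). Hoxb3os was lower, at -0.84 (SE 0.17, adjusted p = 0.000312), although Hoxb3 was higher. How strand entered the counting is not given in the sources used here, so reads of a gene and its antisense partner cannot be told apart. Of 11 tested TALE homeodomain cofactors, which bind DNA together with Hox proteins, 5 were lower in descending and none higher. Meis2 stood at 59.8, 57.4, 58.3, 55.9 and 59.4 CPM in the ascending libraries and 31.9, 33.8, 35.2, 31.9 and 37.5 CPM in the descending libraries, a difference of -0.77 (SE 0.06, adjusted p = 4.65e-11), and Meis1 differed by -0.60 (SE 0.06, adjusted p = 5.3e-09).

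Most listed factors of the second heart field and outflow tract ran the other way, though the second heart field marker Isl1 did not pass the test. Of 17 tested, 12 were lower in descending, every one by at least 2-fold, and none was higher, beside 15.2% of all genes lower. The median difference was -3.01, and 12 members were lower within each pseudogene set as well. Gata4, a zinc finger factor of heart and outflow tract, stood at 50.7, 45.4, 56.1, 58.9 and 44.6 CPM in the ascending libraries and 0.256, 0.0616, 0, 0.215 and 0.123 CPM in the descending libraries, a difference of -8.50 (SE 0.22, adjusted p = 3.1e-20). Hand2, a bHLH factor of the second heart field and neural crest, stood at 65.0, 57.8, 59.5, 63.8 and 56.4 CPM in the ascending libraries and 0.87, 1.17, 0.484, 0.376 and 0.736 CPM in the descending libraries, a difference of -6.38 (SE 0.14, adjusted p = 1.08e-21). Tbx20, a T-box factor of heart and valves, stood at 139, 131, 136, 158 and 142 CPM in the ascending libraries and 8.04, 7.33, 7.31, 7.57 and 8.96 CPM in the descending libraries, a difference of -4.17 (SE 0.08, adjusted p = 8.6e-22). None of the 3 came near an overlap, and each varied little from one ascending library to the next.

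Nkx2-5, the cardiac homeodomain factor, had 3.84, 1.89, 2.11, 3.89 and 2.37 CPM in ascending and no count in descending, at least 83.3-fold lower against 3 counts over the group. Hand1 had 2.44, 1.78, 2.4, 1.73 and 1.48 CPM and no count, at least 59.3-fold lower. Gata5 and Tbx5 fell to the edge of detection in descending, with differences of -6.88 (SE 0.38, adjusted p = 9.12e-14) and -4.71 (SE 0.52, adjusted p = 5.66e-08). Tbx2, Tbx3, Irx3, Irx5 and Hopx completed the lower genes, from -5.29 for Irx5 to -1.38 for Hopx. The remaining 5 tested members did not pass: Isl1, Gata6, Tbx1, Mef2c and Smarcd3 had differences between -0.19 and 0.16 (adjusted p from 0.0636 to 0.649). Without descending library 3 Mef2c was called higher, at 0.21 (adjusted p = 0.00919). Isl1, a second heart field marker in the embryo, stood at 6.48, 7.39, 7.79, 7.88 and 8.35 CPM in the ascending libraries and 7.78, 7.39, 8.22, 5.48 and 4.29 CPM in the descending libraries, and the regions overlapped. Gata6 was likewise level, at 133 ± 13.9 CPM in ascending and 123 ± 9.39 CPM in descending libraries (mean ± SD, n = 5). The long noncoding Hand2os1, on the opposite strand beside Hand2, went with its neighbour: 38.1, 33.9, 35.0, 44.8 and 41.1 CPM in ascending against 0.102, 0.0616, 0, 0 and 0 CPM in descending, a ratio of 1145-fold (95% counting interval 391 to 5554).

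These factors are also made by heart muscle, and heart muscle genes moved with them. The 19 listed cardiomyocyte markers summed to between 608 and 1420 CPM in ascending and 101 to 109 CPM in descending libraries, and all 18 tested were lower in descending (median -6.12). Myl2 and Csrp3 were at 0 in every descending library. Myh6, the cardiac myosin heavy chain, had 390, 121, 172, 220 and 327 CPM in the ascending libraries and 2.87, 2.28, 2.42, 1.61 and 1.9 CPM in the descending ones. From the lowest to the highest ascending library Myh6 ran from 121 to 390 CPM and Gata4 from 44.6 to 58.9 CPM. What part cardiac tissue had in the outflow tract factors was not tested.

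Genes of the paraxial mesoderm and somites leaned towards the descending aorta. Of 14 tested, 8 were higher and 1 lower, beside 12.1% and 15.2% of all genes, with a median difference of 0.41. Pax1, a paired-box factor of the sclerotome, from which vertebrae form, stood at 0.149, 0.222, 0.539, 0.158 and 0 CPM in the ascending libraries and 15.9, 12.3, 18.8, 18.5 and 15.3 CPM in the descending libraries, a difference of 6.12 (SE 0.26, adjusted p = 6.63e-16). Every descending library lay above every ascending one. Pax9, a sclerotome relative of Pax1, was higher by 1.35 (SE 0.22, adjusted p = 2.95e-05). Meox2, Tbx18 and Eya1 were higher by 0.65, 0.59 and 1.16 (adjusted p = 5.06e-05, 3.8e-08 and 0.013). Foxc2 was higher by 0.24 (SE 0.07, adjusted p = 0.0146), a call lost without ascending library 5 (adjusted p = 0.0529). The call of Eya1 was lost within both pseudogene sets (adjusted p = 0.0786 and 0.241).

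One somite gene went the opposite way. Meox1, a homeodomain factor of the somite and a relative of Meox2, had 19.4, 20.4, 21.1, 19.8 and 19.6 CPM in ascending and 1.74, 1.05, 1.61, 1.83 and 0.982 CPM in descending libraries, a difference of -3.77 (SE 0.14, adjusted p = 9.07e-17). Meox2, by contrast, stood at 8.3 ± 1.06 CPM in ascending and 13 ± 1.61 CPM in descending libraries (mean ± SD, n = 5). Tbx6, Tcf15, Foxc1, Nkx3-2 and Scx did not pass the test, with differences from -0.72 to 0.06. Mesp1, Pax7 and Uncx, which act in the embryonic somite, had no count in any water library.

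Neural crest factors were mostly lower in descending: 9 of 12 tested, against 2 higher, beside 15.2% and 12.1% of all genes, with a median of -1.04. Msx1, a homeodomain factor of the crest, stood at 23.5, 32.5, 28.4, 28.7 and 26.5 CPM in the ascending libraries and 6.76, 6.9, 8.92, 8.86 and 7.67 CPM in the descending libraries, a difference of -1.83 (SE 0.09, adjusted p = 3.92e-14). Sox9, which acts in the crest and in cartilage, stood at 22.1, 16.2, 20.2, 20.8 and 17.7 CPM in the ascending libraries and 1.79, 1.66, 3.28, 2.95 and 2.09 CPM in the descending libraries, a difference of -3.03 (SE 0.13, adjusted p = 1.5e-15). Tfap2a had 1.84, 1.61, 1.99, 1.94 and 1.38 CPM in ascending and no count in descending, at least 52.5-fold lower. Sox10, a factor of crest-derived glia, was low in both regions and lower in descending, at -1.33 (SE 0.24, adjusted p = 8.18e-05), as was the glial gene Mbp, at -1.34. The 2 higher members were Snai2, by 0.38 (SE 0.11, adjusted p = 0.0119), and Twist1, by 0.15 (SE 0.05, adjusted p = 0.0383), both by less than 1.5-fold. The call of Twist1 was lost within both pseudogene sets (adjusted p = 0.217 and 0.136) and without any one of ascending libraries 1, 3, 4 and 5 and descending libraries 1, 3 and 4 (adjusted p from 0.0522 to 0.106). Within the higher pseudogene set 5 and within the lower set 7 crest factors were called lower.

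**Figure D2:**
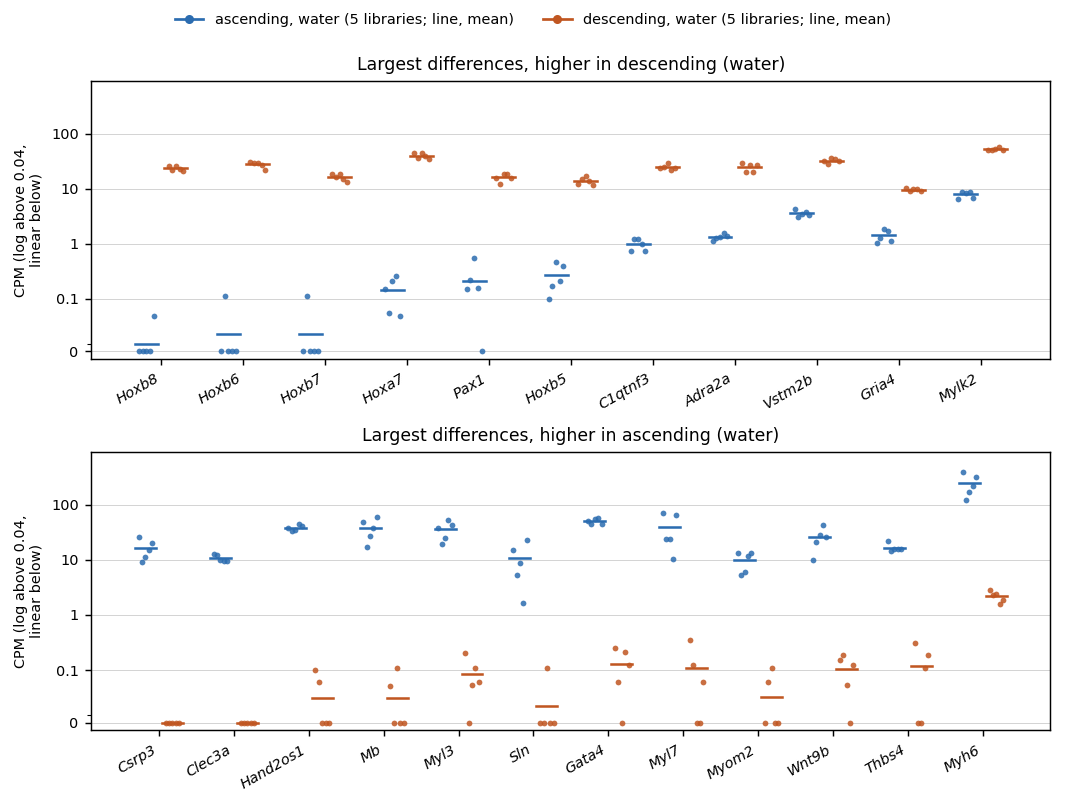
Levels of the genes with the largest differences in each direction among genes averaging at least 5 CPM, in CPM on an axis logarithmic above 0.04 and linear below; points are the 5 water libraries of each region, lines their means. No gene shows an overlap of the regions; the upper row starts with 4 Hox genes near 0 in ascending, and the lower row holds cardiac muscle genes beside Clec3a, Hand2os1, Gata4, Wnt9b and Thbs4.

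Outside the patterning lists, the genes with the largest differences towards descending had a range of roles. C1qtnf3, a secreted C1q/TNF-related protein, stood at 0.747, 1.22, 1.24, 0.998 and 0.741 CPM in the ascending libraries and 23.3, 25.1, 28.7, 21.9 and 23.8 CPM in the descending libraries, a difference of 4.62 (SE 0.14, adjusted p = 1.45e-18). Vstm2b, a membrane protein of the immunoglobulin family, stood at 3.56 ± 0.471 CPM in ascending and 32.3 ± 2.96 CPM in descending libraries (mean ± SD, n = 5), a difference of 3.18 (SE 0.09, adjusted p = 4.6e-19). Gria4, a glutamate receptor subunit, and Mylk2, a myosin light chain kinase named for skeletal muscle, were higher by 2.75 (SE 0.14, adjusted p = 1.68e-14) and 2.73 (SE 0.09, adjusted p = 3.35e-18). Mylk2 stood at 6.58, 8.66, 8.5, 8.72 and 6.82 CPM in the ascending libraries and 50.9, 50.3, 52.2, 57.4 and 50.7 CPM in the descending libraries, without overlap. Of the 5 tested skeletal muscle markers 0 were higher and 3 lower in descending. The sums of the listed markers were low, at 10.2 to 15.9 CPM in ascending and 7.46 to 8.87 CPM in descending libraries. What part skeletal muscle had in Mylk2 was not tested.

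The largest differences towards ascending were those of muscle genes, of Gata4 and Hand2os1, and of 3 secreted proteins. Clec3a, a C-type lectin of cartilage, had 12.6, 12.2, 9.99, 9.61 and 9.49 CPM in ascending and no count in descending, at least 319-fold lower. Thbs4, the thrombospondin of tendon and heart, had 21.8, 14.4, 15.7, 16.0 and 15.6 CPM against 0.307, 0, 0, 0.107 and 0.184 CPM, a difference of -7.01 (SE 0.36, adjusted p = 2.61e-14). Wnt9b, a Wnt ligand known from valves and kidney, had 10, 20.9, 27.8, 43.3 and 26.0 CPM against 0.154, 0.185, 0.0537, 0 and 0.123 CPM, a difference of -7.89 (SE 0.47, adjusted p = 4.9e-13). Wnt9b was not in the list of Wnt ligands. The muscle genes Mb, Sln and Myom2 had ratios of 1130-fold (95% counting interval 387 to 5484), 486-fold (95% counting interval 134 to 4020) and 296-fold (95% counting interval 101 to 1438).

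**Figure D3:**
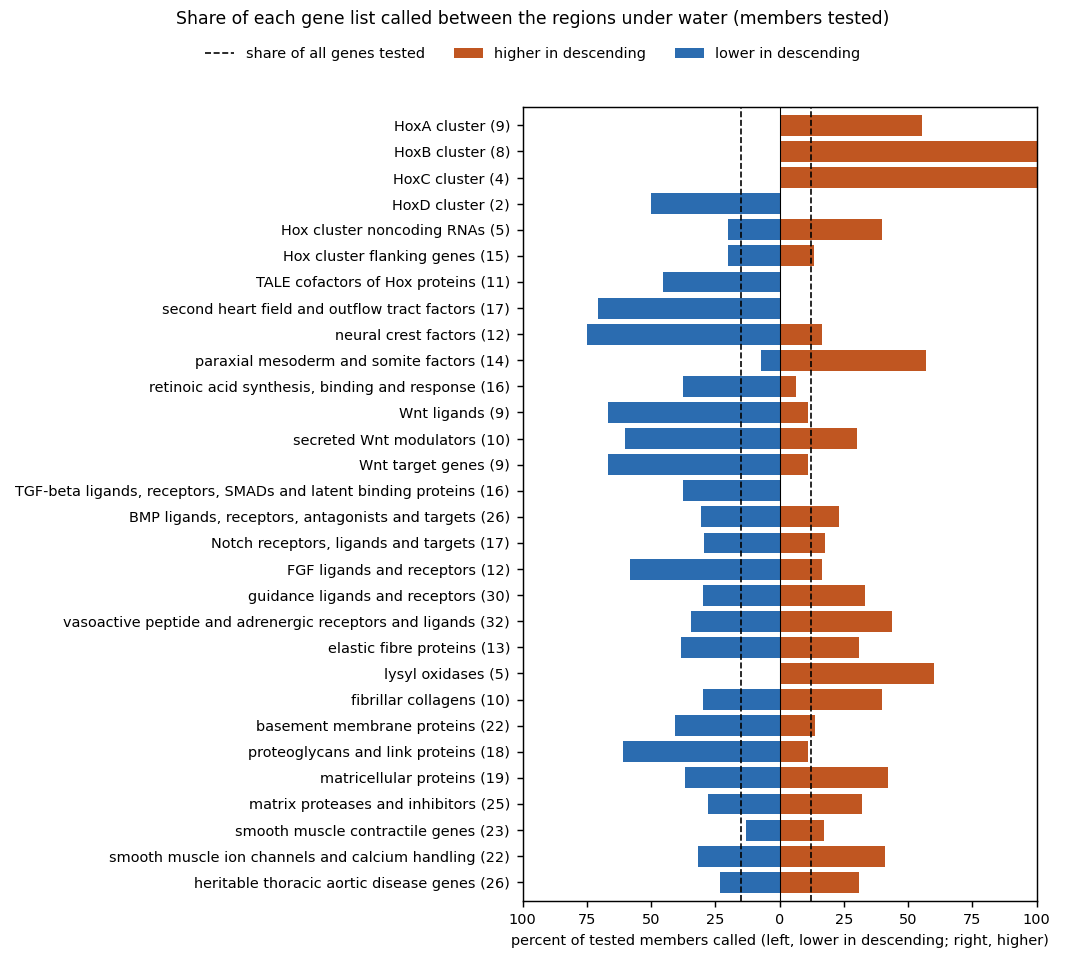
Share of the tested members of each list that were called lower (left) or higher (right) in descending, in percent, with the number of tested members in brackets; dashed lines mark the shares among all genes tested, 15.2% lower and 12.1% higher. Clusters A, B and C, paraxial factors and lysyl oxidases stand to the right, and outflow tract and neural crest factors, Wnt lists and proteoglycans to the left.

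Wnt ligands act through frizzled receptors, in the canonical branch on beta-catenin, and genes of the pathway were more often lower than higher in descending. Among ligands 6 of 9 were lower and 1 higher, among secreted modulators 6 of 10 and 3, and among target genes 6 of 9 and 1, beside 15.2% of all genes lower. The 1 higher ligand call was lost without ascending library 5 or descending library 1. Wnt5a, a ligand of the non-canonical branch, stood at 87.5, 95.8, 92.1, 91.2 and 91.7 CPM in the ascending libraries and 49.1, 45.3, 49.2, 50.2 and 43.8 CPM in the descending libraries, a difference of -0.95 (SE 0.07, adjusted p = 4.08e-11). Wnt11 and Wnt4 were lower, at -1.66 (SE 0.14, adjusted p = 2.62e-10) and -3.24 (SE 0.26, adjusted p = 1.42e-10). Axin2, a feedback target of beta-catenin, stood at 14.9, 13.1, 16.0, 13 and 10.5 CPM in the ascending libraries and 5.48, 6.77, 6.72, 6.92 and 6.01 CPM in the descending libraries, a difference of -1.08 (SE 0.12, adjusted p = 4.75e-08). Nkd2 and Rnf43, further feedback inhibitors of the pathway, were lower, at -1.81 (SE 0.12, adjusted p = 7.62e-12) and -5.08 (SE 0.50, adjusted p = 4.43e-09).

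The secreted modulators did not all move together. Wif1, an inhibitor that binds Wnt ligands, stood at 170, 162, 158, 174 and 148 CPM in the ascending libraries and 42.4, 39.5, 41.1, 37.0 and 36.4 CPM in the descending libraries, a difference of -2.05 (SE 0.07, adjusted p = 2.3e-18). Sfrp4, a frizzled-related decoy, went the other way, with 16.9, 20.4, 18.9, 19.4 and 17.2 CPM in the ascending libraries and 128, 106, 111, 98.0 and 118 CPM in the descending libraries, a difference of 2.60 (SE 0.10, adjusted p = 5.37e-17). Sfrp1 and Sfrp2 were higher by 0.32 and 0.50, while Frzb and Dkk3 were lower, at -0.87 and -0.47. Rspo1, an R-spondin that boosts Wnt signalling, was lower, at -3.98 (SE 0.26, adjusted p = 2.49e-12). Rspo1 and Wnt4 are also made by mesothelium, whose markers summed to between 305 and 519 CPM in ascending and 24.4 and 41.9 CPM in descending libraries, and its part in these values was not tested.

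Retinoic acid, made from vitamin A by aldehyde dehydrogenases and cleared by Cyp26 enzymes, is among the signals known to set Hox expression in the embryo. Of 16 tested genes, 6 were lower in descending and 1 higher, beside 15.2% and 12.1% of all genes. Aldh1a1 stood at 72.8, 77.4, 80.3, 90.0 and 85.7 CPM in the ascending libraries and 25.8, 22.3, 26.4, 22.7 and 22.8 CPM in the descending libraries, a difference of -1.76 (SE 0.06, adjusted p = 5.53e-18). Aldh1a2, the main embryonic enzyme and also a mesothelial gene, had 10.8, 19.7, 16.1, 18 and 13.3 CPM against 1.74, 0.431, 0.43, 0.644 and 0.859 CPM, a difference of -4.21 (SE 0.29, adjusted p = 1.18e-11). Cyp26a1, a clearing enzyme, went the same way, at -5.30 (SE 0.45, adjusted p = 4.3e-10), and so did the retinol transporter Stra6, at -2.97 (SE 0.38, adjusted p = 6.17e-07). Rbp4, the carrier of retinol, was the 1 higher gene, by 0.64 (SE 0.05, adjusted p = 8.77e-11); without ascending library 1 or descending library 1, 2 or 5 the list had 2 higher genes. The nuclear receptors of the pathway did not pass the test, with Rxra at 0.10 (SE 0.04, adjusted p = 0.0718); with the pseudogene set as a term Rxra was called, at 0.12 (adjusted p = 0.0196), the list then having 3 higher genes, and without descending library 2 as well (adjusted p = 0.0462).

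BMP genes, of the TGF-beta superfamily, divided: 6 of 26 tested were higher and 8 lower. Bmp3 stood at 54.3, 54.2, 50, 51.0 and 56.5 CPM in the ascending libraries and 20.7, 21.6, 19.0, 19.8 and 25.8 CPM in the descending libraries, a difference of -1.32 (SE 0.08, adjusted p = 9.97e-13). Bmp6 was higher, at 66.0, 83.7, 106, 91.8 and 90.1 CPM in the ascending libraries and 161, 147, 144, 140 and 143 CPM in the descending libraries, a difference of 0.74 (SE 0.10, adjusted p = 1.63e-06). Gdf10 and the endothelial receptor gene Acvrl1 were higher by 0.55 and 0.45, and Gdf6 and Bmp2 lower, at -1.48 and -0.77. TGF-beta genes moved little: 6 of 16 were lower and none higher, none by 2-fold. Tgfbr2, a receptor subunit mutated in Loeys-Dietz syndrome, stood at 286, 270, 291, 276 and 301 CPM in the ascending libraries and 217, 224, 214, 222 and 233 CPM in the descending libraries, a difference of -0.36 (SE 0.04, adjusted p = 1.56e-08). Ltbp2 and Ltbp4, latent TGF-beta binding proteins of the matrix, were lower, at -0.62 (SE 0.06, adjusted p = 7.94e-09) and -0.30 (SE 0.04, adjusted p = 6.21e-06), and the ligand Tgfb2 did not pass, at -0.20 (SE 0.09, adjusted p = 0.121), but was called without ascending library 1 (adjusted p = 0.0469).

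Notch genes gave 3 higher and 5 lower of 17 tested, beside 12.1% and 15.2% of all genes. The receptor Notch4, mostly of endothelium, stood at 12.8, 16.5, 15, 20.7 and 16.2 CPM in the ascending libraries and 31.8, 26.6, 31.9, 27.9 and 32.0 CPM in the descending libraries, a difference of 0.89 (SE 0.11, adjusted p = 2.53e-07), and Notch1 ran opposite, at -0.77 (SE 0.09, adjusted p = 2.09e-07). The ligands Jag2 and Dll1 were lower, at -0.92 and -0.78, and the ligand-modifying Mfng was higher by 0.67. FGF genes gave 2 higher and 7 lower of 12. The receptor Fgfr2 was higher, at 65.2, 65.5, 69.0, 64.4 and 58.4 CPM in the ascending libraries and 103, 115, 118, 117 and 108 CPM in the descending libraries, a difference of 0.80 (SE 0.05, adjusted p = 1.07e-12). Fgfr3 was lower, at -0.87 (SE 0.11, adjusted p = 1.2e-06), and the ligands Fgf9, Fgf10 and Fgf18 by -3.48, -2.43 and -0.85.

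Guidance molecules, which steer axons, crest cells and vessels, were called in either direction: 10 of 30 were higher and 9 lower. Epha3, an ephrin receptor, stood at 17.1, 18.2, 15.8, 17.3 and 20.5 CPM in the ascending libraries and 110, 109, 106, 112 and 119 CPM in the descending libraries, a difference of 2.64 (SE 0.07, adjusted p = 4.53e-20). Epha7, a receptor of the same family, ran opposite, at 16.0, 18, 20.3, 21.8 and 17.7 CPM in the ascending libraries and 4.66, 3.45, 4.68, 4.24 and 5.52 CPM in the descending libraries, a difference of -2.06 (SE 0.12, adjusted p = 8.9e-13). Sema3a, a secreted repellent, stood at 4.44, 4.67, 5.64, 6.41 and 6.48 CPM in the ascending libraries and 26.5, 30.4, 31.9, 35.1 and 33.3 CPM in the descending libraries, a difference of 2.5 (SE 0.10, adjusted p = 4.09e-16). Robo1, the receptor of Slit ligands, and Unc5b, a netrin receptor, were lower, at -1.45 (SE 0.11, adjusted p = 5.09e-11) and -1.09 (SE 0.07, adjusted p = 2.39e-12). The list as a whole had a median of -0.01.

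Genes of vasoactive ligands and of peptide, adrenergic, serotonin and prostanoid receptors were called at 25 of 32 tested, 14 higher and 11 lower, beside 12.1% and 15.2% of all genes. Adra2a, the alpha-2A adrenergic receptor, stood at 1.1, 1.28, 1.33, 1.58 and 1.38 CPM in the ascending libraries and 28.8, 20.3, 27.1, 20.4 and 26.7 CPM in the descending libraries, a difference of 4.21 (SE 0.15, adjusted p = 3.2e-17). Avpr1a, the vasopressin V1a receptor, stood at 0.349, 0.389, 0.58, 0.735 and 1.29 CPM in the ascending libraries and 6.96, 5.6, 4.19, 6.17 and 6.07 CPM in the descending libraries, a difference of 3.10 (SE 0.26, adjusted p = 4.38e-10). Npr1, the natriuretic peptide receptor that makes cyclic GMP, stood at 183 ± 4.51 CPM in ascending and 292 ± 11.5 CPM in descending libraries (mean ± SD, n = 5), a difference of 0.67 (SE 0.04, adjusted p = 1.23e-13). Edn3, an endothelin ligand, was low in both regions and higher in descending by 2.48 (SE 0.29, adjusted p = 1.92e-07). On the other side, Adra1b and Adrb1 were lower, at -0.97 (SE 0.13, adjusted p = 1.13e-06) and -1.12 (SE 0.18, adjusted p = 2.31e-05), and Adra2b had 1.64, 1.17, 1.37, 0.893 and 1.29 CPM in ascending against a single count in descending, a ratio of 114-fold (95% counting interval 20.2 to 4554). Of these alpha-2 receptors Adra2a was thus higher in descending and Adra2b in ascending.

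Elastin and 3 of its 5 crosslinking enzymes were higher in the descending wall. Eln, which encodes elastin, stood at 27064, 27383, 28446, 24744 and 25272 CPM in the ascending libraries and 41423, 45971, 51984, 51786 and 48204 CPM in the descending libraries, a difference of 0.85 (SE 0.07, adjusted p = 1.51e-10). It took 4.16 to 5.08% of all counts in descending and 2.55 to 2.95% in ascending libraries. Of the 5 lysyl oxidases, the enzymes that BAPN inhibits, 3 were higher and none lower, beside 12.1% and 15.2% of all genes. Lox stood at 680, 772, 795, 709 and 708 CPM in the ascending libraries and 1043, 1198, 1174, 1094 and 1225 CPM in the descending libraries, a difference of 0.65 (SE 0.05, adjusted p = 1.46e-10), without overlap. Loxl1 and Loxl3 were higher by 0.18 (SE 0.05, adjusted p = 0.00391) and 0.38 (SE 0.05, adjusted p = 2.32e-07). Loxl2 and Loxl4 did not pass, at 0.01 (SE 0.06, adjusted p = 0.911) and 0.25 (SE 0.10, adjusted p = 0.061), though Loxl4 was called in a fit to the 10 compared libraries alone (adjusted p = 0.0294).

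Other elastic fibre genes went both ways. Of 13 tested, counting Eln, 4 were higher and 5 lower. The microfibril proteins Fbn1, the Marfan syndrome gene, and Fbln5 were level, at 0.04 (SE 0.05, adjusted p = 0.562) and -0.02 (SE 0.04, adjusted p = 0.701). Efemp1 stood at 38.9, 62.0, 60.9, 68.3 and 60 CPM in the ascending libraries and 10.6, 6.77, 7.47, 8.86 and 7.73 CPM in the descending libraries, a difference of -2.80 (SE 0.13, adjusted p = 6.99e-15). Fbln1 and Fbn2, a fibrillin of the embryonic wall, were lower, at -1.25 (SE 0.06, adjusted p = 2.05e-15) and -2.85 (SE 0.25, adjusted p = 8.68e-10). Mfap5, a microfibril-associated glycoprotein, was higher by 0.49 (SE 0.04, adjusted p = 6.4e-10). Efemp2 and Mfap2 differed by 0.13 and -0.13, and both calls were lost within each pseudogene set. The call of Efemp2 was also lost without ascending library 4 or descending library 3 (adjusted p = 0.0642 and 0.0517), and that of Mfap2 without any one library other than descending 3 (adjusted p from 0.0601 to 0.119).

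Fibrillar collagens divided by type, 4 higher and 3 lower of 10. The abundant collagens of the wall were higher in descending: Col1a1 stood at 4900, 4864, 4786, 4502 and 4796 CPM in the ascending libraries and 6739, 7506, 7765, 8244 and 7971 CPM in the descending libraries, a difference of 0.68 (SE 0.06, adjusted p = 3.78e-10). Col1a2, Col3a1 and Col5a1 were higher by 0.55 (SE 0.04, adjusted p = 5.22e-11), 0.34 (SE 0.04, adjusted p = 7.51e-07) and 0.37 (SE 0.05, adjusted p = 3.56e-06). Cartilage collagens were lower, Col2a1, Col11a1 and Col11a2 by -6.37 (SE 1.00, adjusted p = 2.45e-05), -2.27 (SE 0.21, adjusted p = 2.34e-09) and -2.94 (SE 0.15, adjusted p = 5.52e-14). Col11a2 stood at 42.1, 37.5, 44.9, 40.3 and 31.6 CPM in the ascending libraries and 5.37, 5.3, 5.37, 5.91 and 3.44 CPM in the descending libraries. The chondrocyte list, which holds Col2a1 and Col11a2 too, moved with these: 14 of 16 tested markers were lower and none higher, their sum running from 273 to 376 CPM in ascending and 99.6 to 111 CPM in descending libraries, with Cnmd and Ucma at 0 in descending; Matn1 was also at 0 there but had only 5 counts in ascending. What part cartilage-like tissue had in these differences was not tested.

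Proteoglycans and link proteins, which hold water and space the fibres, were lower in descending at 11 of 18 tested genes and higher at 2 (median -0.67); leaving out any one of ascending libraries 1, 3, 4 and 5 and descending libraries 1, 2 and 5 made that 1. The shares of all genes were 15.2% lower and 12.1% higher. Adventitial fibroblast markers summed to between 5127 and 5841 CPM in ascending and 4283 and 4492 CPM in descending libraries. The single markers split, with 3 of 12 higher and 5 lower in descending (median -0.15). The chondrocyte markers given above were mostly lower. What part either cell type had in the list was not tested. With the 2 chondrocyte markers of the list, Acan and Hapln1, left out, 9 of 16 listed genes were lower (median -0.48). Only those 2 genes of the list were dropped, so the part of cartilage-like tissue was not tested by this either. Lum, a small leucine-rich proteoglycan, stood at 656, 607, 625, 672 and 637 CPM in the ascending libraries and 334, 264, 298, 278 and 306 CPM in the descending libraries, a difference of -1.11 (SE 0.07, adjusted p = 5.7e-12). Dcn, of the same family, stood at 1738, 1751, 1763, 1896 and 1861 CPM in the ascending libraries and 1097, 938, 957, 978 and 1083 CPM in the descending libraries, a difference of -0.83 (SE 0.05, adjusted p = 2.53e-12). Chad and Aspn were lower, at -2.73 (SE 0.21, adjusted p = 7.74e-11) and -0.66 (SE 0.05, adjusted p = 3.23e-10), Podn was higher by 0.45 (SE 0.08, adjusted p = 0.000117), and Bgn did not pass, at -0.06 (SE 0.05, adjusted p = 0.43). Bgn, the gene of biglycan, stood at 5214 ± 166 CPM in ascending and 4997 ± 419 CPM in descending libraries (mean ± SD, n = 5).

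Matricellular proteins, which sit in the matrix and signal to cells, showed large differences in both directions, 8 higher and 7 lower of 19. Ccn3, a growth regulator of the CCN family, stood at 1803, 1779, 1626, 1730 and 1676 CPM in the ascending libraries and 606, 578, 540, 590 and 605 CPM in the descending libraries, a difference of -1.56 (SE 0.05, adjusted p = 1.59e-18). Ccn5, of the same family, ran opposite, at 154, 173, 169, 153 and 152 CPM in the ascending libraries and 322, 334, 355, 324 and 287 CPM in the descending libraries, a difference of 1.02 (SE 0.10, adjusted p = 6.34e-09). Tnc, tenascin C, stood at 57.9, 56.7, 53, 52.2 and 51.5 CPM in the ascending libraries and 178, 215, 216, 218 and 233 CPM in the descending libraries, a difference of 1.97 (SE 0.07, adjusted p = 6.56e-18). Fn1, fibronectin, and Sparc, a collagen-binding protein, were higher by 0.82 (SE 0.05, adjusted p = 4.21e-13) and 0.58 (SE 0.04, adjusted p = 1.69e-12). Sparcl1, a relative of Sparc, was lower, at 571, 535, 491, 517 and 509 CPM in the ascending libraries and 170, 163, 155, 171 and 172 CPM in the descending libraries, a difference of -1.66 (SE 0.05, adjusted p = 2.16e-19). Spp1, osteopontin, had 24.3, 26.3, 20.2, 20.2 and 14.7 CPM against 0.512, 0.677, 0.967, 0.537 and 0.368 CPM, a difference of -5.08 (SE 0.29, adjusted p = 2.09e-13).

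Among 25 matrix proteases and inhibitors 8 were higher and 7 lower; without descending library 3, 5 were higher. Mmp17, a membrane-anchored metalloprotease of smooth muscle, stood at 187, 198, 183, 173 and 180 CPM in the ascending libraries and 297, 323, 336, 335 and 331 CPM in the descending libraries, a difference of 0.82 (SE 0.04, adjusted p = 8.31e-14). Mmp3 was higher by 1.07 (SE 0.11, adjusted p = 2.47e-08). Timp3, a matrix-bound inhibitor of these enzymes, stood at 748 ± 34.7 CPM in ascending and 491 ± 35.4 CPM in descending libraries (mean ± SD, n = 5), a difference of -0.61 (SE 0.05, adjusted p = 3.57e-10), and Adamts5, Mmp2 and Plat were lower, at -0.69, -0.64 and -0.65. Basement membrane genes gave 3 higher and 9 lower of 22. Lamc3, a laminin chain, stood at 154, 140, 134, 132 and 136 CPM in the ascending libraries and 35.0, 40.2, 39.4, 48.3 and 46.6 CPM in the descending libraries, a difference of -1.74 (SE 0.07, adjusted p = 3.32e-16). Col4a3 was lower, at -0.63 (SE 0.05, adjusted p = 4.43e-10) and Col4a5 higher by 0.33 (SE 0.05, adjusted p = 5e-06).

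Contractile genes of smooth muscle were called about as often as all genes, with a median difference of 0.04. Of 23, 4 were higher and 3 lower, beside 12.1% and 15.2% of all genes. Of those called, 1 differed by at least 2-fold. Acta2, smooth muscle actin, stood at 11488, 12192, 11296, 11361 and 10924 CPM in the ascending libraries and 10832, 11720, 12179, 12255 and 12640 CPM in the descending libraries, a difference of 0.06 (SE 0.05, adjusted p = 0.381). The exception in size was Des, desmin, an intermediate filament protein of muscle, at 223, 211, 203, 177 and 183 CPM in the ascending libraries and 75.0, 80.6, 91.8, 87.8 and 82.2 CPM in the descending libraries, a difference of -1.26 (SE 0.08, adjusted p = 2.8e-12). Itga8 and Actg2 were higher by 0.34 (SE 0.05, adjusted p = 3.15e-06) and 0.48 (SE 0.06, adjusted p = 1.12e-06), and Hspb6, a small heat shock protein, lower, at -0.67 (SE 0.05, adjusted p = 2.8e-10). Of 22 ion channel and calcium handling genes of that muscle, 9 were higher and 7 lower, beside 12.1% and 15.2% of all genes. P2rx1, an ATP-gated channel, stood at 21.5, 22.2, 21.6, 22.7 and 19.2 CPM in the ascending libraries and 44.4, 47.2, 57.6, 45.1 and 43.9 CPM in the descending libraries, a difference of 1.15 (SE 0.08, adjusted p = 1.31e-11). Kcnj8 and Abcc9, the subunits of the vascular ATP-sensitive potassium channel, were higher together, by 0.77 (SE 0.07, adjusted p = 4.78e-09) and 0.72 (SE 0.06, adjusted p = 8.79e-11). Cacna1h, a T-type calcium channel, was lower, at -1.82 (SE 0.19, adjusted p = 2.48e-08), and Piezo1, a mechanosensitive channel, at -0.61 (SE 0.09, adjusted p = 3.74e-06).

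Genes whose variants cause heritable thoracic aortic disease in people, a disease that affects the ascending aorta above all, were called at 14 of 26 tested, 8 higher and 6 lower, beside 27.3%, 12.1% and 15.2% of all genes, with a median difference of 0.01. Beside Eln, Lox, Col3a1, Mfap5, Tgfbr2 and Notch1 given above, Slc2a10, a sugar transporter gene of arterial tortuosity syndrome, was higher by 0.40 (SE 0.05, adjusted p = 8.29e-07), as were Ski and Thsd4 by 0.20 and 0.26. Smad3 was lower, at -0.26 (SE 0.06, adjusted p = 0.00149). Mylk, the smooth muscle light chain kinase, was lower, at -0.16 (SE 0.05, adjusted p = 0.0143), a call lost within each pseudogene set and without ascending library 1 (adjusted p = 0.0592). Fbn1, Acta2, Myh11, Flna and Smad4 did not pass. The 1 member that differed by 2-fold was Hcn4, a pacemaker channel of the heart, with 2.24, 1.22, 1.53, 2.89 and 2.97 CPM in ascending and 3 counts in all in descending, a ratio of 64.3-fold (95% counting interval 21.7 to 314).

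**Figure D4:**
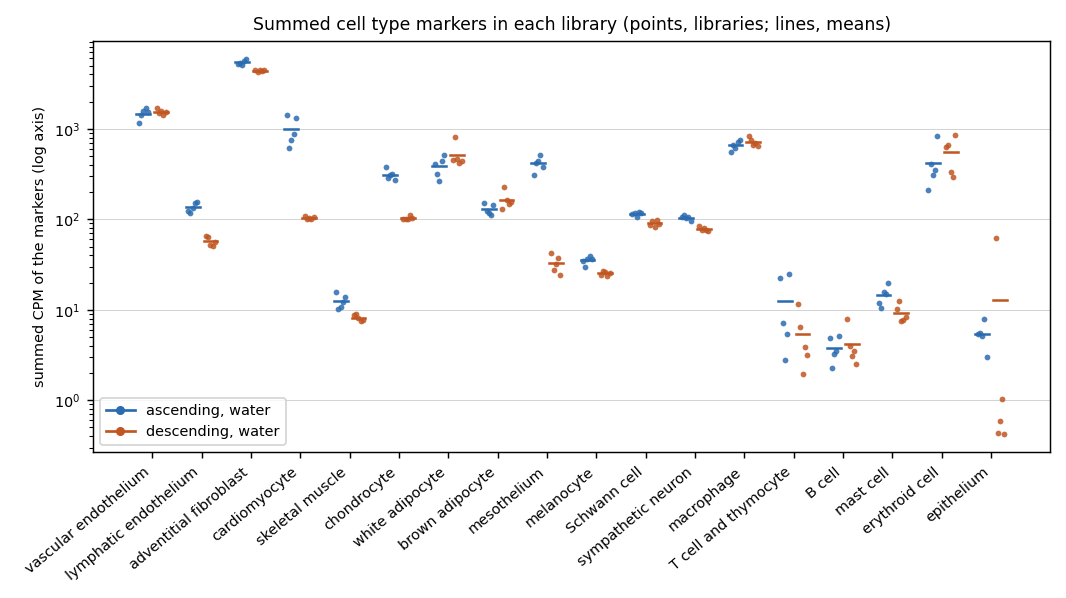
Summed CPM of the markers of other cell types and tissues in each water library, on a logarithmic axis; points are libraries, lines the means of 5. Cardiomyocyte, mesothelium, chondrocyte and lymphatic sums separate the regions, those of vascular endothelium and macrophages overlap, and 1 descending library stands high for epithelium.

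Markers of tissues that adjoin the wall separated the regions as well. All 9 mesothelial markers were lower in descending (median -5.19), summing to 305 to 519 CPM in ascending and 24.4 to 41.9 CPM in descending. Upk3b, a surface protein of mesothelium, stood at 108, 159, 164, 190 and 138 CPM in the ascending libraries and 3.99, 0.985, 2.58, 3.17 and 0.245 CPM in the descending libraries, a difference of -6.05 (SE 0.29, adjusted p = 7.38e-15). Lymphatic markers were lower at 5 of 6, with sums of 117 to 156 CPM against 50.1 to 64.9 CPM, and Prox1, the lymphatic identity factor, differed by -4.36 (SE 0.24, adjusted p = 1.42e-13). Melanocyte markers were lower at 5 of 7. Dct, a pigment enzyme, had 5.43, 4.67, 8.12, 11 and 7.32 CPM against 0, 0, 0, 0.107 and 0.123 CPM, a difference of -7.15 (SE 0.49, adjusted p = 8.8e-11), and Tyrp1, another, was at least 60.7-fold lower with no count in descending. Sympathetic neuron markers were lower at 4 of 7 tested and higher at 0 (median -0.53). Their sums ran from 95.7 to 111 CPM in ascending and from 73.7 to 84.6 CPM in descending libraries. Npy, a peptide of sympathetic nerves, showed a far larger difference than the list, with 4.48, 4.94, 5.1, 5.15 and 4.2 CPM in ascending and no count in descending, at least 142-fold lower. The parts of these tissues in the differences given above were not tested.

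Fat markers were more often called higher than lower in descending. White adipocyte markers were higher at 5 of 10 and lower at none, with 3 higher without ascending library 2, ascending library 3 or descending library 2, and 1 higher within the higher pseudogene set. Brown adipocyte markers were higher at 5 and lower at 2 of 10. Under BAPN 2 white markers were higher and 1 lower, and 5 brown markers were higher and 1 lower. White sums ran from 267 to 509 CPM in ascending and from 414 to 809 CPM in descending libraries, which overlap. Brown sums, from 112 to 150 CPM in ascending and from 131 to 225 CPM in descending libraries, overlap as well. Ucp1 and Cidea, given next, are 2 of the 5 higher brown markers. Ucp1, the uncoupling protein of brown fat, stood at 21.8, 3.33, 0.207, 2.1 and 6.57 CPM in the ascending libraries and 24.9, 61.3, 35.5, 31.5 and 38.7 CPM in the descending libraries, a difference of 2.5 (SE 0.68, adjusted p = 0.00661). Cidea, a lipid droplet protein of brown fat, stood at 18.9, 11.6, 6.17, 11.6 and 13.4 CPM in the ascending libraries and 25.9, 42.3, 30.1, 31.2 and 24.8 CPM in the descending libraries, a difference of 1.33 (SE 0.25, adjusted p = 0.000192). Descending library 2 was the highest of all for both genes. Mitotic genes were higher at 5 of 10 under water, beside 12.1% of all genes, with Ccna2 at 0.78 (SE 0.14, adjusted p = 0.000108). This was not seen again under BAPN, where 0 mitotic genes were called higher and 0 lower. Their median difference was 0.46 under water and 0.18 under BAPN.

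Endothelium was divided within itself. Summed markers overlapped, at 1151 to 1701 CPM in ascending and 1432 to 1699 CPM in descending, and Pecam1 and Nos3, pan-endothelial genes, did not pass, at 0.14 (SE 0.08, adjusted p = 0.234) and 0.10 (SE 0.09, adjusted p = 0.452). Yet 5 of 15 markers were lower by at least 2-fold. Kdr, the main VEGF receptor, stood at 29.1, 34.2, 39.1, 52.3 and 40.3 CPM in the ascending libraries and 5.48, 6.04, 4.3, 4.83 and 5.4 CPM in the descending libraries, a difference of -2.91 (SE 0.19, adjusted p = 2.36e-12). Emcn, a sialomucin of veins and capillaries, stood at 30.9, 33.2, 36.6, 43.2 and 35.8 CPM in the ascending libraries and 9.16, 7.39, 9.57, 7.46 and 10.4 CPM in the descending libraries, a difference of -2.03 (SE 0.13, adjusted p = 3.79e-12). Flt1 and Cldn5 were lower, at -1.15 (SE 0.11, adjusted p = 3.56e-09) and -1.09 (SE 0.07, adjusted p = 5.04e-12). Vwf, von Willebrand factor, was the 1 higher member (2 without ascending library 2, ascending library 4 or descending library 4), at 212, 252, 302, 338 and 289 CPM in the ascending libraries and 488, 391, 461, 394 and 434 CPM in the descending libraries, a difference of 0.64 (SE 0.10, adjusted p = 1.61e-05). Of 12 macrophage markers 2 were higher and none lower, and 1 was higher without any one of ascending libraries 1, 2 and 3 and descending libraries 1 and 2. Of 13 nuclear genes of oxidative phosphorylation 0 were called.

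The regional difference was seen again under BAPN, in libraries that share no sample with the water comparison. There 4626 genes were called (29.8% of those tested), and 3229 of the 4243 water calls were called in the same direction, 76.1% of the water list and 69.8% of the BAPN list, with 0 in the opposite direction. Of the 1172 genes past 2-fold under water, 1084 were called again (92.5%). Under BAPN the pseudogene sets coincide with the regions, with all ascending libraries in the higher and all descending ones in the lower set, so region and set cannot be told apart there. With the set as a term of the fit to all 20 libraries, 2755 genes were called under BAPN. Pax1, Gata4 and Hoxa7 had differences of 7.21, -8.36 and 7.77 under BAPN beside 6.12, -8.50 and 8.0 under water.

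**Figure D5:**
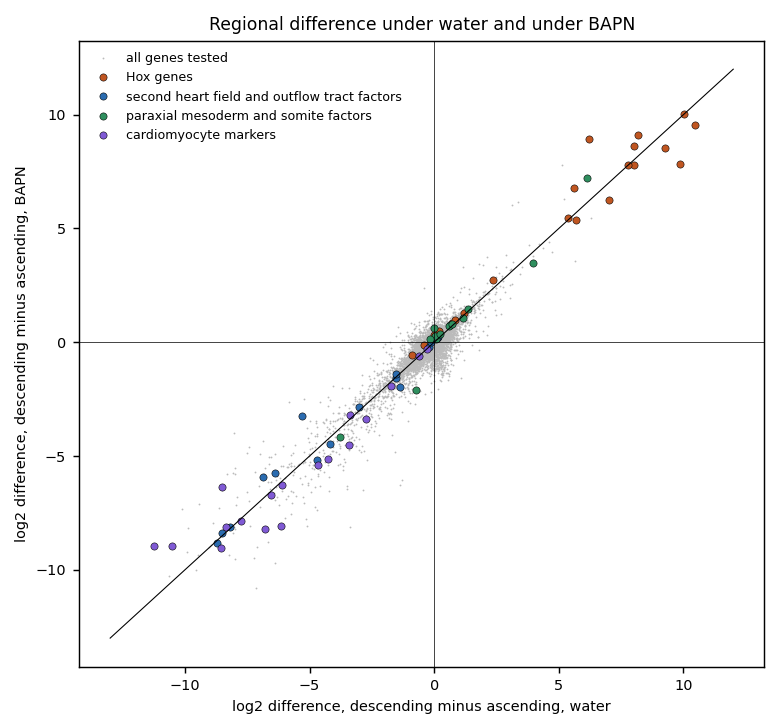
Log2 difference of descending minus ascending under water (horizontal) and under BAPN (vertical) for all 15543 genes tested, with Hox genes, outflow tract, paraxial and cardiomyocyte lists marked and the line of equality drawn; fitted values of genes with 3 counts or fewer in a region depend on the prior count. Many Hox, outflow tract and cardiomyocyte genes lie far from 0 on both axes and close to the line. Other Hox and outflow tract genes, such as Hoxa3 and Gata6, lie near 0 under water.

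A test of whether the regional difference itself changed with BAPN called 0 of 15543 genes by edgeR (0%), with 1070 at an unadjusted p under 0.05. DESeq2 called 14. Without descending water library 4 the edgeR count was 16, and without descending BAPN library 5 it was 1. A p that misses the threshold does not show that these differences were equal.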

How the data were processed

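Per the labels' protocols, total RNA (1 µg a library) was made into cDNA libraries with a kit for Illumina sequencing. Per the submitters' processing notes, fastp, STAR 2.5, HTSeq 0.6.1 and mm10 were used; the annotation counted against and the use of strand are not given in the sources used here. The authors deposited unnormalized read counts for 54532 genes in 20 libraries, and 54495 gene IDs were matched to a mouse annotation for names and lengths. The members and gene lists were chosen with earlier results of these data known, and some of the lists come from an earlier analysis of them.

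From the deposited counts, edgeR 4.0.16 (R 4.3.3; filterByExpr with a minimum count of 10 and total of 15, TMM, glmQLFit and glmQLFTest) was fitted to all 20 libraries with 1 coefficient for each of the 4 groups, which share 1 estimate of spread. P-values were adjusted by Benjamini-Hochberg over the 15543 genes that passed, and a gene was called at an adjusted p under 0.05. Levels are means ± SD of 5 libraries, in CPM on TMM library sizes; per kilobase values use the union of annotated exons. Fitted differences depend on a prior count where a region has few counts, so genes with 0 counts in a region are given against a floor of 3 counts over the group, and genes with 1 to 3 counts as a ratio with an exact 95% interval; these cover counting error only. The depth of 16355337 to 23292294 counts a water library gave a median standard error of 0.087 (log2). Simulated counts were made for 15303 genes of the water comparison, with changed genes drawn only from well-expressed ones (5 CPM or higher on average). Of 50 genes changed by 1.25-fold, 72% were recovered, with 92% at 1.5-fold and 100% at 2-fold and 4-fold. There were 5 false among 187 calls, beside 4243 calls in the data. Recovery of genes below 5 CPM, or with as many changed genes as in the data, was not tested. The pseudogene sets split the libraries at the widest gap (1.73, the next 0.51) of a first principal component, computed on 33 pseudogenes averaging 2 CPM or more. Genes named are the 12 called genes with the largest difference in each direction at a mean of at least 5 CPM (no predicted genes or pseudogenes), any Hox gene or member of the outflow tract, neural crest, paraxial, elastic fibre, lysyl oxidase or disease lists, and up to 4 members a direction with the smallest p of every other list. Replicate numbers were not taken as pairs. Tried as alternatives were DESeq2 1.42.0, limma 3.58.1 (voom), other scalings and filters, a replicate block, the pseudogene sets, a fit to the 10 compared libraries, a test against 2-fold, the marker genes left out, and each library left out. Homeodomain protein sequences are not used here, and some genes of the lists, counted in their totals, are not reported by name.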

Additional observations from a re-analysis of the deposited data

Results flagged for a closer look

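Each group of 5 water libraries was screened for a library that stood apart from the other 4, by Dixon's ratio of its gap to the group's range, with a critical value of 0.71. Over the named genes and the marker sums, 482 groups with at least 10 counts were screened and 26 were marked, about 1 in 20 being marked by chance. All values are CPM.

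In ascending library 1, Adamts5 was lowest at 125 (the other libraries 138 to 141), Edn3 was highest at 0.847 (the other libraries 0.297 to 0.456), Efemp1 was lowest at 38.9 (the other libraries 60 to 68.3), Irx5 was highest at 2.94 (the other libraries 1.57 to 1.94), Mbp was lowest at 9.12 (the other libraries 11.5 to 12.3), Myh11 was highest at 5552 (the other libraries 4695 to 4856) and Thbs4 was highest at 21.8 (the other libraries 14.4 to 16.0). In ascending library 2, Jag2 was lowest at 9.05 (the other libraries 11.5 to 12.1) and Mfap5 was highest at 675 (the other libraries 571 to 595). In ascending library 4, Col1a1 was lowest at 4502 (the other libraries 4786 to 4900) and Egr2 was highest at 5.25 (the other libraries 3.19 to 3.78). In ascending library 5, Hopx was highest at 8.45 (the other libraries 5.17 to 5.99), Loxl4 was highest at 14.8 (the other libraries 13.5 to 13.9) and Scx was lowest at 20.2 (the other libraries 22.7 to 23.3). In descending library 1, Fgf10 was highest at 0.563 (the other libraries 0.245 to 0.322), Sftpc was highest at 49.3 (the other libraries 0 to 0.0537), the sum of B cell markers was highest at 7.93 (the other libraries 2.52 to 4.0) and the sum of epithelium markers was highest at 61.7 (the other libraries 0.429 to 1.02). In descending library 2, Loxl4 was highest at 19.8 (the other libraries 15.3 to 16.5) and the sum of white adipocyte markers was highest at 809 (the other libraries 414 to 458). In descending library 3, Gdf6 was highest at 4.03 (the other libraries 2.65 to 3.01) and P2rx1 was highest at 57.6 (the other libraries 43.9 to 47.2). In descending library 4, Mylk2 was highest at 57.4 (the other libraries 50.3 to 52.2). In descending library 5, Adamts5 was highest at 91.7 (the other libraries 82.3 to 84.7), Col11a2 was lowest at 3.44 (the other libraries 5.3 to 5.91) and Dll1 was highest at 9.82 (the other libraries 6.71 to 7.33).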

How the results depend on the processing

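No direction of a count or a named gene reversed under any alternative run. The 4243 calls under water became 3988 to 4330 with another tool, scaling, filter or set of fitted libraries, and 3825 to 4246 with 1 of the 10 libraries left out. Of the 4243 genes 3249 kept their call whichever of the 10 libraries was left out, as did 1094 of the 1172 past 2-fold. Fitted within the higher pseudogene set alone, 2537 genes were called (898 higher, 1639 lower), and within the lower set 2601 (1019 higher, 1582 lower); these fits have fewer libraries. A test against a 2-fold difference (glmTreat) called 699 genes in place of 1172. Under BAPN the pseudogene set as a term gave 2755 calls in place of 4626. The test of a change of the regional difference with BAPN called 0 genes, 14 by DESeq2, 41 without a filter on low counts (the cause was not tested), and 0 to 16 with 1 library left out. Without descending water library 4 all 16 were more negative under BAPN. Of 214 named and tested genes, 9 moved across the threshold without some library and 12 within a pseudogene set. Gene lists moved more: of 106 list results, 22 moved without some library, 36 within a pseudogene set and 22 under other alternatives. Matrix proteases and inhibitors, 8 higher and 7 lower, gave 4 and 8 within the higher set. The 6 lower TGF-beta genes became 8 within the higher and 3 within the lower set. Replicate numbers did not pair the water libraries (same-number correlations of -0.05 to 0.1), and with a replicate block 4387 genes were called. Among BAPN libraries, each ascending library correlated best with the descending library of its own number, though weakly (0.06 to 0.11). With a replicate block 4733 genes were called under BAPN. The number alone does not tell whether samples were paired. Depth limits genes with few counts in both regions, such as Hox groups 11 to 13, which were not tested.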

Other observations

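Adventitial fibroblast markers summed to between 5127 and 5841 CPM in ascending and 4283 and 4492 CPM in descending water libraries, and of 12 tested 3 were higher and 5 lower. Clec3b, tetranectin, stood at 205, 229, 208, 226 and 239 CPM in the ascending libraries and 274, 276, 289, 270 and 249 CPM in the descending libraries, a difference of 0.29 (SE 0.07, adjusted p = 0.00241) by edgeR that was not called within the higher pseudogene set (adjusted p = 0.101). Dpep1, a dipeptidase, was higher, at 0.54 (SE 0.08, adjusted p = 6.41e-06), and Cd34, a sialomucin of fibroblasts and endothelium, lower, at -0.32 (SE 0.05, adjusted p = 6.23e-06).

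Schwann cell markers summed to between 106 and 120 CPM in ascending and 81.8 and 99.2 CPM in descending libraries, without overlap, and 6 of 10 were lower. Egr2, a factor of myelination, differed by -1.33 (SE 0.22, adjusted p = 2.63e-05). Of 14 tested clock genes 1 was higher and 2 lower, counts that single libraries moved to between 1 and 3 higher and between 1 and 2 lower. Of 12 immediate early genes 2 were lower. Erythroid markers summed to between 209 and 827 CPM in ascending and 292 and 855 CPM in descending libraries and 0 of 5 were called, with 3 higher without ascending library 5.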
